A study of Mus musculus with 59 samples.

Results

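Expression of 10 genes of the Nodal signalling pathway was measured by RNA-seq of 14 single mouse epiblasts at E6.25, the stage shortly before gastrulation. They were chosen by gene symbol, with earlier results of these data known: the ligand *Nodal*, the co-receptor *Tdgf1*, the secreted inhibitors *Lefty1* and *Lefty2*, the receptors *Acvr1b* and *Acvr2b*, the transducers *Smad2* and *Smad3*, the DNA-binding partner *Foxh1* and the intracellular inhibitor *Smad7*. These are 10 of the 22134 genes with a listed transcript, and each is represented by its transcript with the highest mean count.

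The epiblasts came from 2 crosses on a mixed background, each between heterozygous parents. In the *Ehmt2* cross, 4 epiblasts lacked *Ehmt2*, which encodes the H3K9me2 methyltransferase G9a (labelled G9a-/-), and 4 were controls (labelled G9a+/+). In the *Ezh2* cross, 3 epiblasts lacked *Ezh2*, which encodes a Polycomb H3K27 methyltransferase (labelled Ezh-/-), and 3 were controls (labelled Ezh+/+). The methods of the study also allow heterozygous embryos among the controls, and the *Ehmt2* line additionally carried a ΔPE-Pou5f1-EGFP reporter. Both deletions are present in every cell of the embryo, so an effect that starts in extraembryonic tissue is not separated from one within the epiblast. Each library is 1 epiblast, from which 750 pg of RNA was put into amplification. A lower level in such a bulk sample cannot be told apart from fewer cells of the type that makes the transcript.

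Nodal is a secreted ligand of the TGF-beta family. It binds type I and type II activin receptors together with the co-receptor Cripto, encoded by *Tdgf1*, and the receptors phosphorylate SMAD2 and SMAD3. These move to the nucleus with SMAD4 and act with DNA-binding partners such as FOXH1. *Lefty1*, *Lefty2* and *Nodal* itself are known targets of the pathway, so that signalling switches on both its own ligand and its inhibitors. In the embryo before gastrulation the pathway maintains the epiblast, patterns the anterior visceral endoderm and helps to induce the primitive streak.

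The total count over listed transcripts ran from 30161171 to 68464895 per epiblast, and a read can count for more than 1 isoform. The 2 deepest libraries are replicate 4 of the *Ehmt2* controls and knockouts, and the *Ehmt2* fit held a term for this set. The column headings of the study's results table set knockout 4 against control 4 alone, whereas its methods describe a comparison with all controls. The targeted genes followed the labels. *Ehmt2* was at 10.3 to 32.8 CPM (the transcript's count relative to the scaled library size, edgeR's unit) in its controls and 3.22 to 9.46 CPM in its knockouts. *Ezh2* was at 53.4 to 112.0 CPM in its controls and 11.8 to 16.6 CPM in its knockouts. The epiblast label was matched by *Pou5f1*, at 81.3 to 293.6 CPM over the 14 epiblasts. Summed over the 9 genes of the epiblast list, however, the *Ehmt2* knockouts held 1690 to 2418 CPM. Their controls held 2647 to 3064 CPM, without overlap. *Dnmt3b* was the largest part of these sums, at 988 to 1424 CPM in the knockouts and 1629 to 2070 CPM in the controls. Of the 9 genes, 2 had every knockout below every control, as did 2.54% of all genes. *Sox2* was at 16.8 to 31.8 CPM in the knockouts and 15.4 to 22.1 CPM in the controls. By unadjusted p under 0.05 (edgeR), 5 of the 9 were lower and 0 higher, against 6.60% and 8.26% of all genes. After adjustment 0 of the 9 passed. In the *Ezh2* cross the sums over the 9 genes overlapped, at 2071 to 2796 CPM in the knockouts and 2584 to 2737 CPM in the controls. Markers of other tissues were uneven. Summed over the 15 genes of the visceral endoderm list, *Ezh2* control 2 held 1280 CPM and *Ezh2* knockout 1 held 2873 CPM, against 8.92 to 88.1 CPM in the other 12 epiblasts. Summed extraembryonic ectoderm markers were at 783.7, 170.6, 217.6 and 34.3 CPM in *Ehmt2* knockouts 1 to 4 and at 39.9 to 139.3 CPM in their controls. The *Ezh2* knockouts held 110.8 to 205.0 CPM and their controls 68.1 to 110.2 CPM. The 4 listed globin genes summed to at most 1.48 CPM in any epiblast.

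*Lefty1* and *Lefty2* are adjacent on chromosome 1 (GRCm38), *Lefty1* at chr1:180935022-180938400 and *Lefty2* at chr1:180893108-180899103, both on the plus strand. Their coding sequences have the same length, 1104 bases, and are 91.8% identical. Reads had been trimmed to 40 nt, and a read that lies in a stretch identical in both fits either gene. A divergent stretch is shown because it is where reads tell the genes apart.

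The 60-base coding window with the most differences lies in exon 1 of both genes (annotation GENCODE vM21) and holds 18 of the 90 differing bases, which are written in capitals.

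Lefty1, chr1:180935143-180935202: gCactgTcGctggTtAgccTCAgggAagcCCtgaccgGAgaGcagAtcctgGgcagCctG

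Lefty2, chr1:180893217-180893276: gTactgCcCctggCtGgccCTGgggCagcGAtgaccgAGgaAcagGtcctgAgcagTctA

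Of all windows of 40 bases, 21.6% of those in the *Lefty1* transcript and 14% of those in the *Lefty2* transcript occur in the other gene. The remaining windows have no exact match in the other gene. Matches that allow for differing bases were not counted. Counts of both are uncertain to the extent that reads from the shared windows were dropped or split. No exon of another gene overlapped the chosen transcripts of the 10 members in GENCODE vM21.

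Per kilobase of transcript, *Tdgf1* stood far above the other members, at 117.2 ± 44.2 CPM per kb (SD, n = 7 controls of both crosses). *Foxh1*, *Nodal*, *Acvr2b*, *Acvr1b* and *Smad7* followed closely together, with means of 6.29, 6.29, 6.18, 5.96 and 5.62 CPM per kb. The ranges of each neighbouring pair among these 5 overlapped, so their order is not resolved. *Smad2* came next at 3.55 ± 0.532 CPM per kb of its 8089-base transcript, below *Smad7* in 7 of 7 controls. The second listed *Smad2* isoform, of 2410 bases, had 85.9% of the count of the first. The place of *Smad2* below the 5 members therefore depends on the isoform whose length is used. *Smad3* averaged 1.83 ± 0.600 CPM per kb, with a range that did not overlap that of *Smad2*. The 2 inhibitors had the lowest means over the 7 controls, *Lefty2* at 1.49 ± 0.991 and *Lefty1* at 0.731 ± 0.589 CPM per kb. The order of *Smad3* and *Lefty2* is not resolved, since *Smad3* was higher in 4 of 7 controls and lower on average in the *Ehmt2* controls, at 1.67 against 1.79 CPM per kb. *Lefty2* was above *Lefty1* in 5 of 7 controls, with overlapping ranges. The inhibitors were also the most uneven members, with coefficients of variation of 66.4% and 80.5% over the controls, against 13% to 37.7% for the other 8. The highest control was 44.8 times the lowest for *Lefty1* and 4.82 times for *Lefty2*. Ranked by CPM without division by length, *Smad2* is second, since its transcript is the longest at 8.09 kb.

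**Figure D1:**
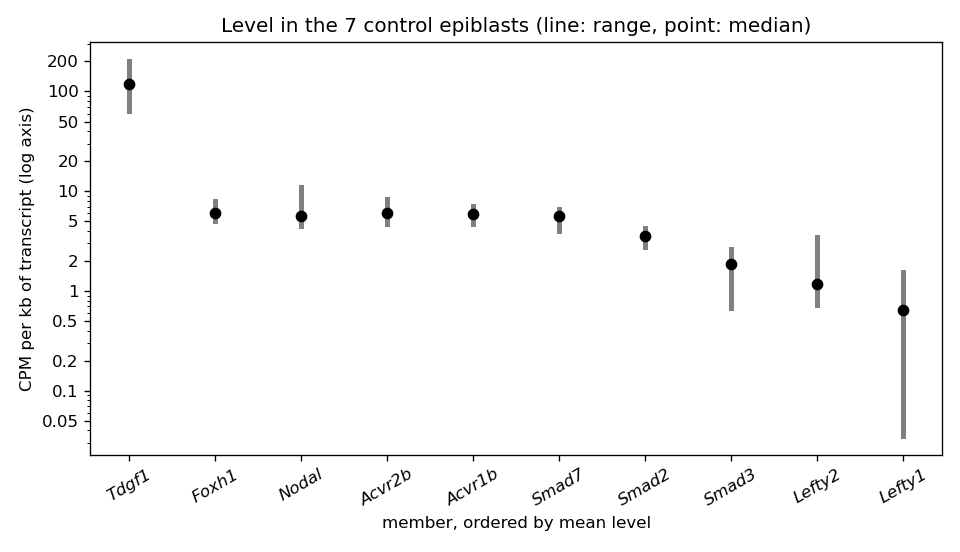
Level of each member in CPM per kb of transcript (log axis) in the 7 control epiblasts, with the range as a line and the median as a point. *Tdgf1* lies alone at the top, 5 members share a level of about 6 CPM per kb, and *Lefty1* spans the widest range.

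*Nodal* (chromosome 10) was at 9.92, 11.5, 9.63 and 12.3 CPM in *Ehmt2* controls 1 to 4 and at 10.4, 14.99, 5.95 and 21.4 CPM in the knockouts. The controls were close together and the knockouts spread around them, with knockout 4 the highest and knockout 3 the lowest of the cross. The fitted log2 fold change was 0.21 (SE 0.27, edgeR's quasi-likelihood test, Benjamini-Hochberg adjusted p = 0.817). *Nodal* in the *Ezh2* cross was at 15.6, 24.1 and 9.72 CPM in the controls and 15, 25.2 and 17.5 CPM in the knockouts. These groups overlapped, with a log2 fold change of 0.22 (SE 0.31, adjusted p = 0.933). With control 2 and knockout 1, the epiblasts rich in visceral endoderm markers, left out, the log2 fold change was 0.75 (SE 0.30, unadjusted p = 0.0295, edgeR adjusted p = 0.775). That alternative compares 2 against 2 without the highest *Nodal* control, and was chosen after seeing the data. The part of the endoderm markers in the *Nodal* values was not tested.

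*Tdgf1* (chromosome 9), the GPI-anchored co-receptor, was at 119.1 to 236.9 CPM in the *Ehmt2* controls and 128.6 to 205.6 CPM in the knockouts. The log2 difference was -0.21 (SE 0.19, edgeR adjusted p = 0.727). Its 3 *Ezh2* controls ran from 237.4 to 402.5 CPM and the knockouts from 235.9 to 356.3 CPM, a log2 difference of 0.07 (SE 0.21, edgeR adjusted p = 0.969). *Tdgf1* thus overlapped between genotypes in both crosses.

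*Lefty2*, an antagonist that binds Nodal and its co-receptors, gave the largest difference of any member, in the *Ezh2* cross. It was at 3.01, 1.83 and 3.54 CPM in *Ezh2* controls 1 to 3 and at 8.79, 13.3 and 11.7 CPM in knockouts 1 to 3. The underlying counts were 104, 62 and 121 in the controls and 273, 479 and 428 in the knockouts. Every knockout lay above every control, with group means of 2.80 ± 0.877 and 11.2 ± 2.27 CPM (SD, n = 3 each). The fitted difference was 4.02-fold, a log2 fold change of 2.01 with an SE of 0.30. EdgeR's quasi-likelihood test gave an unadjusted p of 4.91e-05 and, over all 50855 transcripts tested, an adjusted p of 0.125. *Lefty2* was therefore not called, a call being an adjusted p under 0.05 with a change of more than 1.4 on the log2 scale. The two-sided exact permutation test gave p = 0.1, the smallest that 3 against 3 allows. DESeq2's Wald test on the same epiblasts gave an adjusted p of 2.45e-07 at a log2 fold change of 2.01, and edgeR without a filter on low counts gave 0.0428. DESeq2 called 0.458% of genes higher in this cross and edgeR without the filter 0.0437%.

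Set singly against the controls, *Ezh2* knockouts 1 to 3 had *Lefty2* log2 fold changes of 1.65, 2.25 and 2.06. *Lefty2* thereby met the per-embryo rule, which asks for a log2 fold change beyond 1.4 in every knockout, a Fisher-combined p under 0.05 and at least 5 normalised counts in every epiblast of the higher group. Its combined p was 5.56e-07 without adjustment, and the comparisons behind it share their controls and are not independent. The rule was met by 0.832% of genes in the higher direction and 0.135% in the lower direction. The share of genes with every knockout above every control was 7.53%, and with every knockout below every control 6.59%, so separation by itself is common at 3 against 3.

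Marker lists of other tissues were summed in the same epiblasts. Visceral endoderm markers summed to 51.3, 1280 and 37.9 CPM in *Ezh2* controls 1 to 3 and to 2873, 54.2 and 48.2 CPM in knockouts 1 to 3. With the 2 epiblasts rich in visceral endoderm markers left out, the *Lefty2* log2 fold change was 1.92 (SE 0.32, edgeR adjusted p = 0.122), a comparison of 2 against 2 chosen after seeing the data. Primitive streak markers summed to 73.6 to 172.2 CPM in the controls and 90.4 to 193.9 CPM in the knockouts. The median log2 fold change of the 8 tested was 0.40. Of their 2 defining genes, *T* was at 1.61 to 6.675 CPM in the controls and 6.26 to 19.1 CPM in the knockouts. Its log2 fold change was 1.15 (SE 0.54, unadjusted p = 0.0561, edgeR adjusted p = 0.725). *Mixl1* was at 3.54 to 21.5 CPM and 5.28 to 30.2 CPM, a log2 fold change of 0.54 (SE 0.63, edgeR adjusted p = 0.911). Extraembryonic ectoderm markers summed to 68.1 to 110.2 CPM in the controls and 110.8 to 205.0 CPM in the knockouts, without overlap. Of the 9 tested genes of that list, 4 had every knockout above every control, against 7.53% of all genes. The part of these markers in the *Lefty2* values was not tested.

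In the *Ehmt2* cross *Lefty2* was at 2.08, 5.16, 1.81 and 8.21 CPM in controls 1 to 4 and at 2.35, 5.19, 2.02 and 21.2 CPM in knockouts 1 to 4. Knockouts 1 to 3 lay within the control range and knockout 4 lay far above it. Its own control of the same set, replicate 4, was also the highest control. The log2 fold change was 0.41 (SE 0.42, edgeR adjusted p = 0.767), and 0.07 (SE 0.47) with replicate 4 of both groups left out, an alternative chosen after seeing the data. Without the set term it was 0.84 (edgeR adjusted p = 0.905). The *Lefty2* difference was larger in the *Ezh2* cross by 1.60 on the log2 scale (SE 0.59, unadjusted p = 0.0148, edgeR adjusted p = 0.475 for the difference between crosses), which does not pass adjustment.

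*Lefty1*, the paralogue that marks the anterior visceral endoderm and later the left prospective floor plate, was close to the limit of counting. In the *Ezh2* cross it had 10, 89 and 2 counts in controls 1 to 3 and 24, 38 and 42 counts in the knockouts, that is 0.290, 2.63 and 0.0586 CPM against 0.773, 1.05 and 1.14 CPM. The 3 knockouts were alike, whereas the controls spread above and below them. The log2 fold change was -0.00 (SE 0.99, edgeR adjusted p = 1.0). *Ezh2* control 2, the highest for *Lefty1*, was also the highest of the 14 epiblasts for summed anterior visceral endoderm markers, at 88.7 CPM against 1.68 and 0.510 CPM in controls 1 and 3. *Cer1*, a Nodal antagonist of that tissue, was at 39.1 CPM there, 0.280 CPM in control 1 and 0 in control 3. Without control 2, which leaves controls of 10 and 2 counts, the *Lefty1* log2 fold change was 2.48 (edgeR adjusted p = 0.637). *Lefty1* then met the per-embryo rule beside *Lefty2*, but the share of all genes that meet it in that fit was not computed. Leaving out any other single epiblast gave a *Lefty1* log2 fold change of -0.56 to 0.145. The part of the endoderm markers in the *Lefty1* values was not tested.

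In the *Ehmt2* cross *Lefty1* was at 1.79, 0.529, 1.02 and 1.93 CPM in the controls and 0.336, 2.20, 0.511 and 2.24 CPM in the knockouts. Knockouts 1 and 3 lay below every control and knockouts 2 and 4 above every control, and the log2 fold change was -0.04 (SE 0.61, edgeR adjusted p = 0.988). The most abundant isoform of *Lefty1* was used here, and the other listed isoform, a retained intron, had 12.3% of its count.

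**Figure D2:**
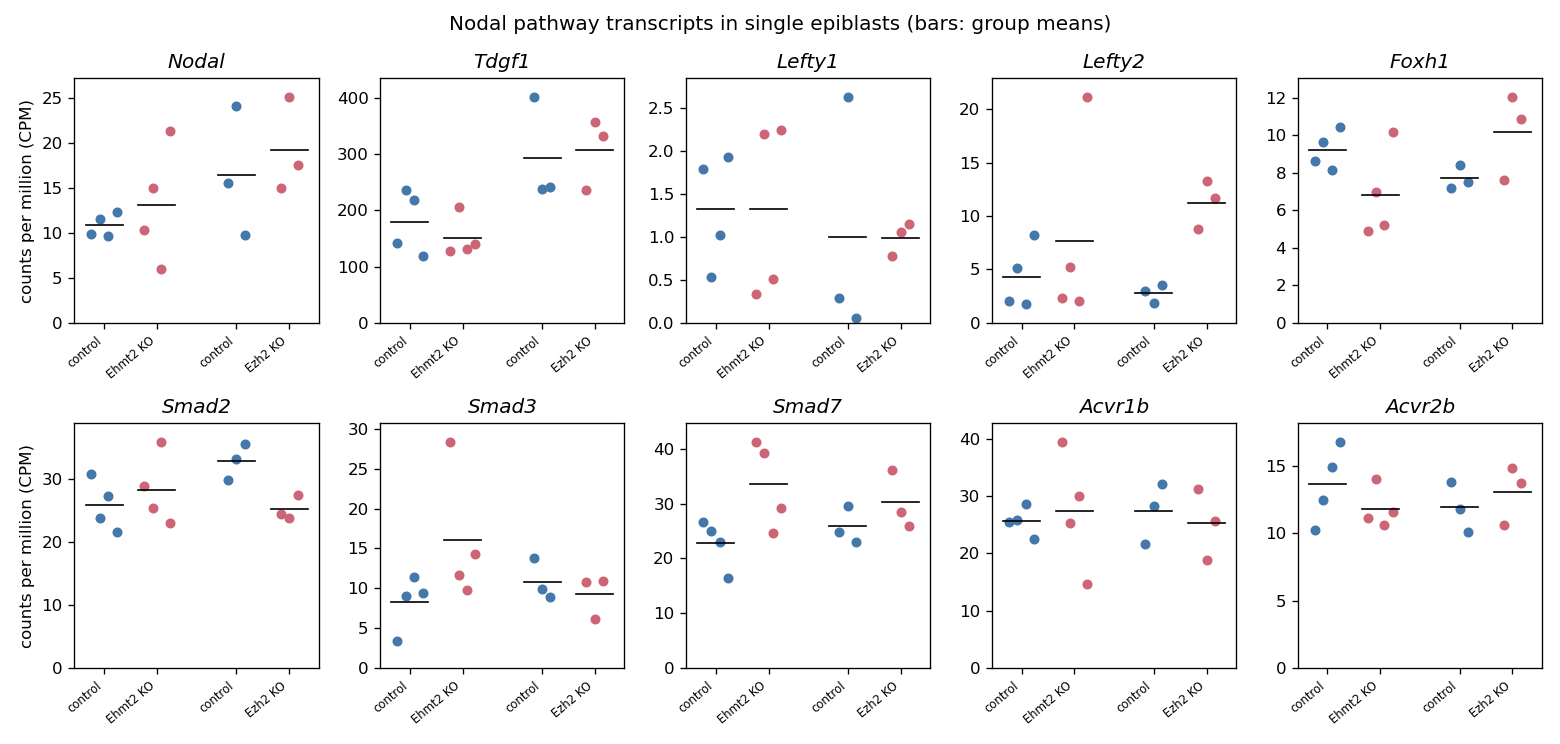
CPM of each member in every epiblast, with controls in blue, knockouts in red and bars at the group means (linear axes from 0). *Lefty2* in the *Ezh2* cross is the clear separation among the panels, with controls up to 3.54 CPM and knockouts from 8.79 CPM, and *Smad2* separates in the opposite direction in the same cross.

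**Figure D3:**
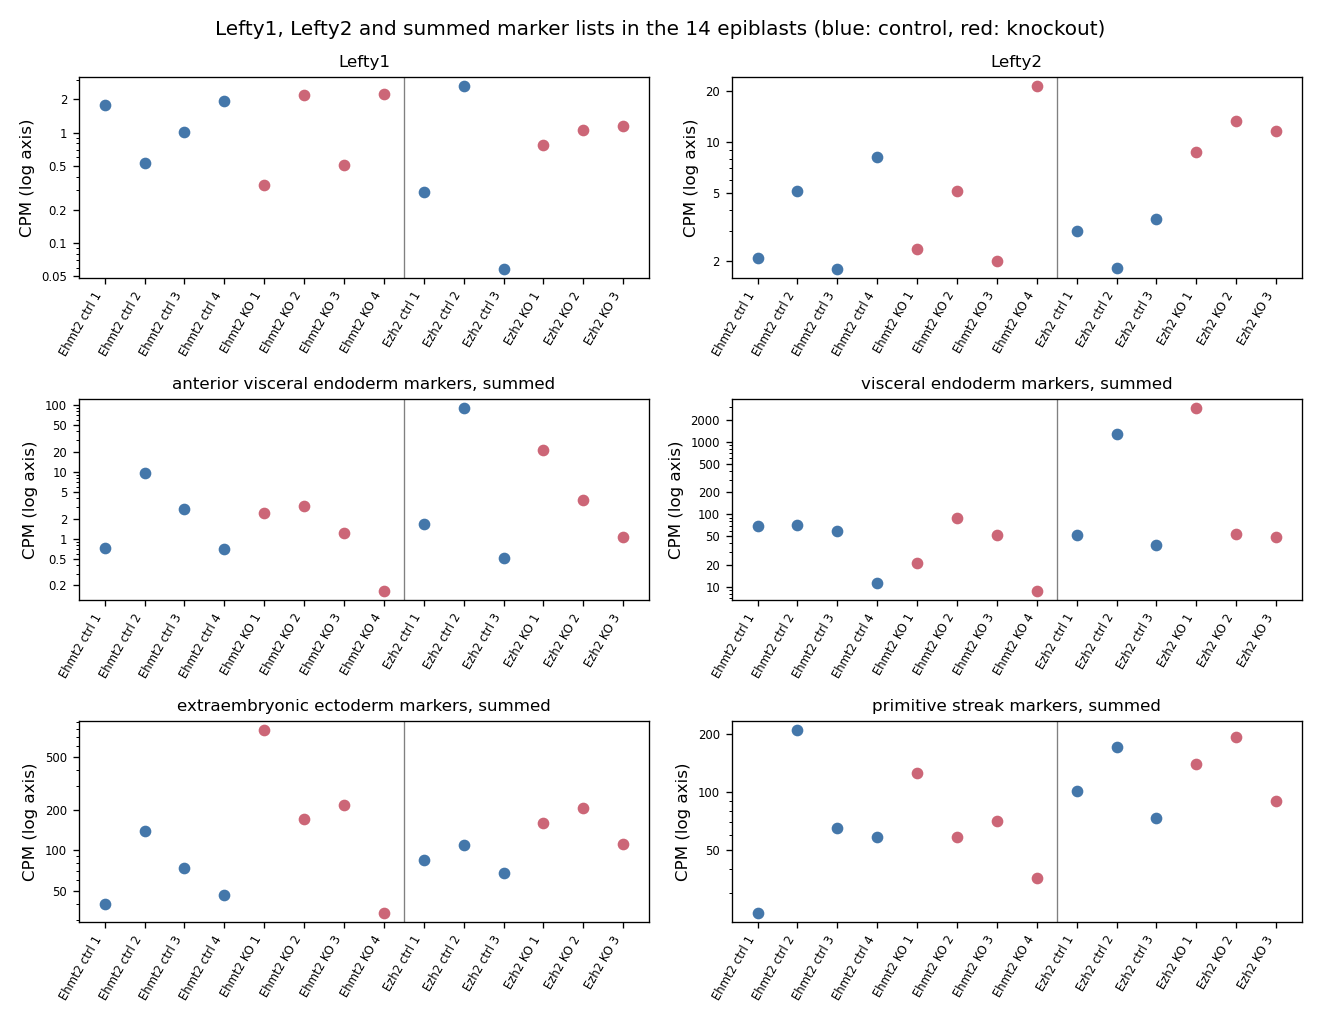
*Lefty1*, *Lefty2* and 4 summed marker lists in CPM (log axes) in the 14 epiblasts, controls in blue and knockouts in red. *Ezh2* control 2 is high for *Lefty1*, for anterior visceral endoderm markers (88.7 CPM) and for visceral endoderm markers (1280 CPM), while *Lefty2* there is the lowest of its cross at 1.83 CPM.

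*Acvr1b* (chromosome 15), the type I receptor ALK4, was at 22.6 to 28.6 CPM in the *Ehmt2* controls. The knockouts spread more widely, at 39.6, 25.4, 30.0 and 14.6 CPM, with a log2 fold change of 0.03 (SE 0.19, edgeR adjusted p = 0.972). Its *Ezh2* controls were at 21.6 to 32.2 CPM and the knockouts at 18.9 to 31.3 CPM. *Acvr2b* (chromosome 9), a type II receptor, was at 10.3 to 16.8 CPM in the *Ehmt2* controls and 10.6 to 14.02 CPM in the knockouts. Its *Ezh2* controls were at 10.1 to 13.9 CPM and the knockouts at 10.6 to 14.8 CPM. Both receptors overlapped between genotypes in both crosses, with fitted log2 fold changes between -0.19 and 0.13. The 2 isoforms of *Acvr2b* had nearly equal counts, the second at 99.2% of the first.

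*Smad2* (chromosome 18), phosphorylated by the activated receptors, was at 29.8, 33.2 and 35.5 CPM in the *Ezh2* controls and 24.4, 23.7 and 27.4 CPM in the knockouts. Every knockout lay below every control. The log2 fold change was -0.38 (SE 0.14, unadjusted p = 0.0206, edgeR adjusted p = 0.617), a difference of 0.768-fold that does not pass adjustment. *Smad2* in the *Ehmt2* cross was at 21.6 to 30.7 CPM in the controls and 23.0 to 35.9 CPM in the knockouts, a log2 difference of 0.13 (SE 0.15).

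*Smad3* (chromosome 9), the second receptor-activated transducer, was at 3.38, 8.97, 11.4 and 9.38 CPM in *Ehmt2* controls 1 to 4 and at 28.4, 11.7, 9.78 and 14.3 CPM in knockouts 1 to 4. All 4 knockouts lay above the control mean of 8.27 CPM, but knockout 3 lay below the highest control. The log2 fold change was 0.96 (SE 0.39, unadjusted p = 0.0298, edgeR adjusted p = 0.362; exact permutation p = 0.0571, of which the smallest possible is 0.0286). Without knockout 1, which had the highest *Smad3* level and the highest extraembryonic ectoderm markers, the log2 fold change was 0.49. In the *Ehmt2* cross 5 of the 11 tested genes of that marker list passed an edgeR adjusted p of 0.05, all higher in the knockouts. Of all 15231 genes, 155 passed in either direction. The defining gene *Elf5* of that list was at 60.9, 5.87, 12.3 and 0 CPM in knockouts 1 to 4 and at most 0.535 CPM in the controls. The part of those markers in the *Smad3* level was not tested. *Smad3* in the *Ezh2* cross was at 8.84 to 13.7 CPM in the controls and 6.15 to 10.9 CPM in the knockouts, a log2 fold change of -0.22, and -0.41 (SE 0.36, edgeR adjusted p = 0.925) without the 2 epiblasts rich in visceral endoderm markers.

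*Foxh1* (chromosome 15), which brings SMAD complexes to DNA, was at 8.64, 9.65, 8.16 and 10.4 CPM in the *Ehmt2* controls and 4.90, 6.95, 5.21 and 10.2 CPM in the knockouts. Knockouts 1 to 3 lay below every control and knockout 4 within their range. The log2 fold change was -0.48 (SE 0.21, unadjusted p = 0.0426, edgeR adjusted p = 0.406). The summed epiblast markers, of which *Dnmt3b* is the largest part, lay below every control in all 4 knockouts, at 1690, 2095, 2278 and 2418 CPM. Summed extraembryonic ectoderm markers were above every control in knockouts 1 to 3, at 783.7, 170.6 and 217.6 CPM, and at 34.3 CPM in knockout 4. The part of both marker lists in the *Foxh1* level was not tested. *Foxh1* in the *Ezh2* cross was at 7.19, 8.42 and 7.496 CPM in the controls and 7.63, 12.1 and 10.9 CPM in the knockouts, a log2 fold change of 0.40 (SE 0.24, edgeR adjusted p = 0.795), and 0.64 (SE 0.28, adjusted p = 0.8) without the 2 epiblasts rich in visceral endoderm markers. The fitted signs were opposite in the 2 crosses, and the *Ehmt2* minus *Ezh2* difference was -0.89 on the log2 scale (SE 0.31, unadjusted p = 0.0108, edgeR adjusted p = 0.441), which does not pass adjustment.

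*Smad7* (chromosome 18), which blocks the activated receptor, was at 26.7, 25.1, 23.0 and 16.4 CPM in *Ehmt2* controls 1 to 4 and at 41.4, 39.3, 24.7 and 29.2 CPM in knockouts 1 to 4. Knockouts 1, 2 and 4 lay above every control, and knockout 3 lay within their range. The log2 fold change was 0.58 (SE 0.17, unadjusted p = 0.00553, edgeR adjusted p = 0.192; exact permutation p = 0.0857). DESeq2's Wald test gave an adjusted p of 0.0451, a level that 2.72% of genes reached in the higher direction by that test. *Smad7* in the *Ezh2* cross was at 23.0 to 29.7 CPM in the controls and 26.0 to 36.3 CPM in the knockouts, a log2 fold change of 0.23 (SE 0.17).

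In the *Ehmt2* cross 0 of the 10 members were called by edgeR, and 0 by DESeq2. EdgeR called 0.722% of genes higher and 0.0591% lower. By unadjusted p under 0.05, 2 members were higher (*Smad3* and *Smad7*) and 1 was lower (*Foxh1*), against 8.26% and 6.60% of genes. No member had every knockout above every control or every knockout below every control, which 3.41% and 2.54% of genes did. No member met the per-embryo rule, which 0.827% of genes met in the higher and 0.223% in the lower direction. The median log2 fold change of the members was 0.08, and that of all genes tested was 0.01.

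In the *Ezh2* cross edgeR again called 0 of the 10 members, where it called 0% of genes higher and 0.00645% lower. By unadjusted p under 0.05, 1 member was higher (*Lefty2*) and 1 was lower (*Smad2*), against 5.29% and 3.39% of genes, and these were also the 2 members whose groups did not overlap. DESeq2 called 1 member, *Lefty2*. The median log2 fold change was 0.10 for the members and 0.03 for all genes. In the test of the difference between the crosses 0 members were called, as were 0.101% of genes, and 4 members (*Lefty2*, *Foxh1*, *Smad2* and *Smad3*) had an unadjusted p under 0.05, against 9.97% of genes.

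**Figure D4:**
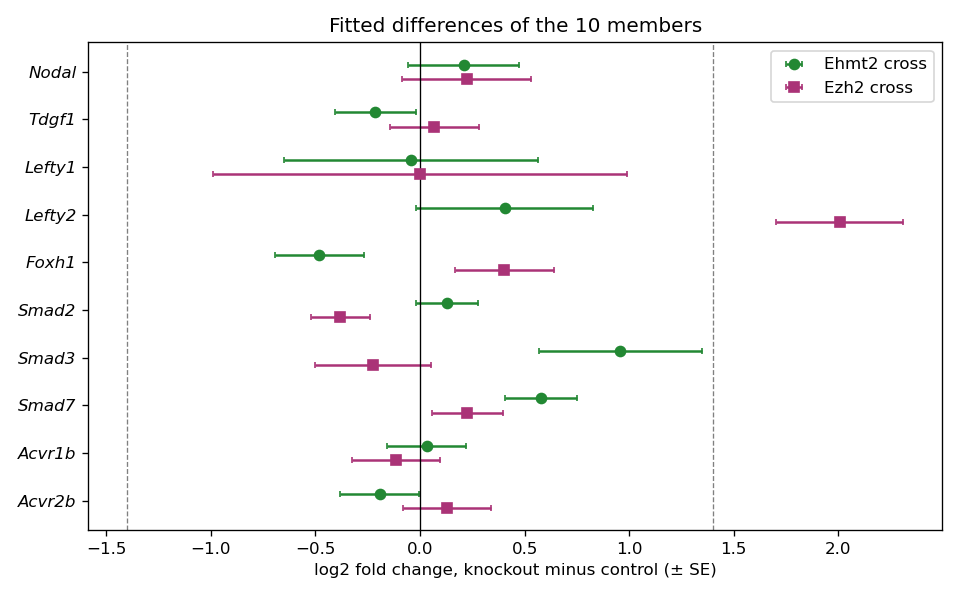
Log2 fold change of each member, knockout minus control, with its SE, in the *Ehmt2* cross (circles) and the *Ezh2* cross (squares). Dashed lines mark 1.4 in either direction, and *Lefty2* in the *Ezh2* cross, at 2.01, is the only point beyond them.

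**Figure D5:**
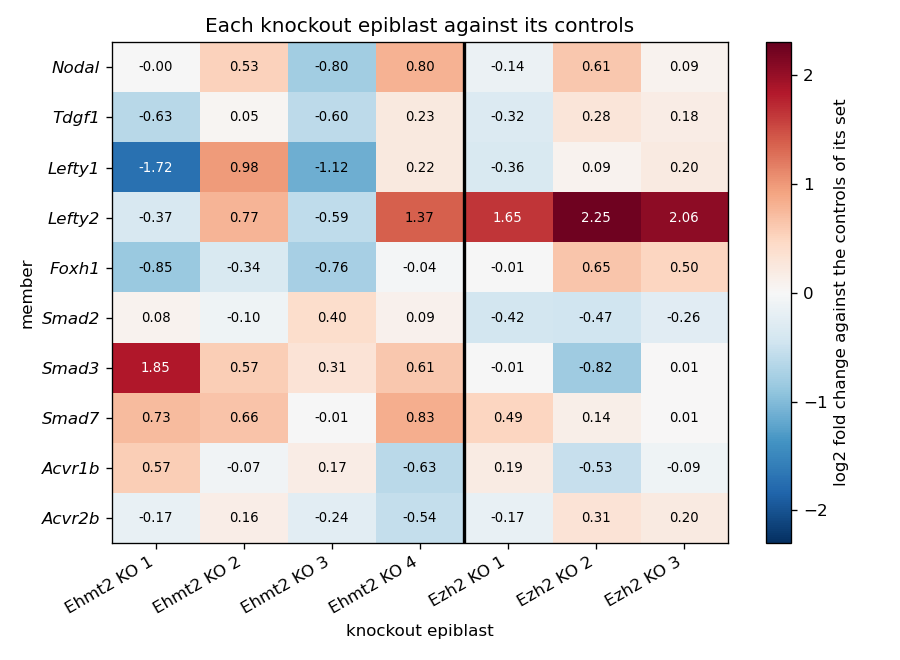
Log2 fold change of each knockout epiblast against the controls of its set, by member. *Lefty2* is beyond 1.4 in all 3 *Ezh2* knockouts (1.65, 2.25 and 2.06), and the *Ehmt2* knockouts differ among themselves in sign for every member but *Foxh1* and *Smad3*.

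Over the 14 epiblasts, the genes whose log2(CPM + 0.5) followed *Nodal* most closely among 13349 genes included *Stk11ip* and *Abcc8*, with Pearson correlations of 0.845 and 0.832. For *Lefty2* they were *Ptk7*, *Nrf1* and *Usp5* at 0.872, 0.867 and 0.862, and for *Lefty1* *Fancd2os*, *Hif1an* and *Gm13199* at 0.827, 0.824 and 0.812. Among the members themselves, correlations with *Nodal* ran from -0.655 (*Acvr1b*) to 0.589 (*Foxh1*), with *Lefty2* at 0.585 and *Lefty1* at 0.509. Those with *Lefty2* ran from -0.777 (*Smad2*) to 0.657 (*Foxh1*), with *Lefty1* at 0.278. Those with *Lefty1* ran from -0.443 (*Acvr1b*) to 0.509 (*Nodal*). These values describe 14 points that share the 2 crosses, the libraries and their depth, and carry no p.

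A list of 45 further pathway genes was examined, of which 37 were tested in the *Ehmt2* cross and 40 in the *Ezh2* cross. None passed an edgeR adjusted p of 0.05 in either direction in either cross. By unadjusted p under 0.05, 4 were higher and 6 lower in the *Ehmt2* knockouts, against 8.26% and 6.60% of all genes. In the *Ezh2* knockouts 6 were higher and 1 lower, against 5.29% and 3.39% of all genes. The median log2 fold change was -0.08 and 0.16. Of the 37 genes tested in the *Ehmt2* cross, 1 lay above and 2 below every control, as did 3.41% and 2.54% of all genes. *Tgfbr2*, a type II receptor for TGF-beta, was above every control at a log2 fold change of 1.48 (SE 0.48). *Tgif1*, a repressor of SMAD-dependent transcription, and *Zfyve9*, which presents SMADs to the receptor, were below every control, at -0.46 (SE 0.13) and -0.61 (SE 0.17).

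In the *Ezh2* cross 7 of the 40 genes tested lay above and 1 below every control, against 7.53% and 6.59% of all genes. Among the genes above every control, *Fstl3*, a secreted inhibitor of activin, had the largest log2 fold change, 2.56 (SE 0.64). The ligand *Tgfb1* followed at 1.75 (SE 0.76). Both were low, with control means of 0.282 and 0.157 CPM. *Skil*, a repressor that binds SMADs, was below every control at a log2 fold change of -0.38 (SE 0.13).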

How the data were processed

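RNA-seq counts of 14 single epiblasts were analysed; the ChIP-seq and bisulfite data of the series were not used here. The authors trimmed reads to 40 nt, aligned them with TopHat2 (the submitters' notes also list Bowtie) to GRCm38/mm10 and deposited raw counts per Ensembl transcript from HTSeq. Whether counting used strand is not given in the sources used here. A row of reads not aligned, present only in replicate 4 of both *Ehmt2* groups (12.6% and 13.3% of the file), was left out. Transcripts absent from a sample were set to 0, and 70021 of 72515 (96.6%) matched GENCODE vM21. Members and lists were chosen with earlier results of these data known.

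Each cross was fitted with edgeR 4.0.16 in R 4.3.3 (filterByExpr, TMM, glmQLFit and glmQLFTest), the *Ehmt2* cross with a term for the comparison set. SEs were derived from the F statistic. Calls used a Benjamini-Hochberg adjusted p under 0.05 over all transcripts tested (49872 and 50855) and a log2 fold change beyond 1.4. Background percentages count 1 transcript per gene. The difference between crosses came from 1 fit of all 14 epiblasts, as did the CPM of levels per kb and markers. Single members were also tested by a two-sided exact permutation test. Named genes were all members, the targeted genes, the 3 pathway genes with the largest change in each direction among those whose groups did not overlap, and the 3 genes most like *Nodal*, *Lefty1* and *Lefty2*; 1 gene that this rule names and 1 sequence are not reported here. Alternatives were DESeq2 1.42.0, RLE scaling, no filter, 1 transcript per gene, a second isoform, no set term, a replicate block, 1 joint fit and leaving out each epiblast. Scripts were tested on simulated data. Labels name single epiblasts as replicates, and the embryos came from as many litters as there are replicates, but which of them shared a litter is not given, so p-values measure the spread between these epiblasts.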

Additional observations from a re-analysis of the deposited data

Results flagged for a closer look

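Of 20 groups of 4 epiblasts examined (10 members in the *Ehmt2* controls and knockouts), 2 held a value far from the other 3, where chance gives about 1 in 20. *Lefty2* was at 21.2 CPM in *Ehmt2* knockout 4, with a gap to the next value of 0.835 of the range. *Tdgf1* was at 205.6 CPM in *Ehmt2* knockout 2, with a gap of 0.855 of the range.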

How the results depend on the processing

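The count of members called higher in the *Ezh2* cross went from 0 to 1 (*Lefty2*) with DESeq2 and to 1 with no filter on low counts. The count meeting the per-embryo rule there went from 1 to 2 (*Lefty1* and *Lefty2*) without control 2 and to 2 with both epiblasts rich in visceral endoderm markers left out, and ranged from 1 to 2 over the fits that left out an epiblast. The share of all genes meeting the rule in these fits was not computed. The counts of members called lower, of *Ehmt2* members and of the difference between crosses were 0 in every alternative run. *Lefty2* in the *Ezh2* cross ranged from 1.78 to 2.21 (adjusted p 0.121 to 0.592) when 1 epiblast was left out.

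Directions turned for values near 0. *Lefty1* in the *Ezh2* cross was 1.16 with the replicate block, 0.69 for the second isoform and 2.63 without the endoderm-rich epiblasts, and ranged from -0.56 to 2.48 when 1 epiblast was left out. *Lefty1* in the *Ehmt2* cross was 0.0078 without the set term and ranged from -0.88 to 0.33. *Smad3* in the *Ezh2* cross was 0.31 for the second isoform. Leaving out 1 epiblast gave *Nodal* -0.0060 to 0.44 and -0.048 to 0.60, *Acvr1b* -0.15 to 0.25 and -0.30 to 0.056 in the *Ehmt2* and *Ezh2* crosses, and *Tdgf1* -0.064 to 0.36 in the *Ezh2* cross. The cause was not tested.

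Replicate numbers were not taken to pair the samples, since not every same-number correlation was over 0.1 in either cross. Same-number correlations ran from 0.032 to 0.322 and from -0.0935 to 0.143 in the *Ehmt2* and *Ezh2* crosses, and were above the mean of the other pairs in 4 of 4 *Ehmt2* pairs, while 3 of 4 *Ehmt2* and 1 of 3 *Ezh2* controls correlated best with their own number. The fit without replicate 4 and the fit without the endoderm-rich epiblasts were chosen after seeing the data. With the replicate block 0 members were called in either cross. *Lefty1* counts of 2 to 139 limit its precision.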
